A study of Mus musculus with 9 samples.

Results

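The genes of Wnt signaling were described here: the Wnt ligands, their receptors and co-receptors, the R-spondin system, the secreted antagonists, and the intracellular and nuclear members of the pathway with its feedback genes. Members were chosen by gene symbol, with earlier results of these data known, which gave 61 of the 47643 genes in the count tables. They comprised 19 ligands, 15 receptors and co-receptors, 9 genes of the R-spondin system, 10 secreted antagonists and 8 intracellular and nuclear genes. Of the 61, 43 had a sum of at least 100 reads over the libraries and were tested, 11 had reads but fell below that limit, and 7 had no read in any library.

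RNA was sequenced from FACS-sorted tumor cells of a mouse model of pancreatic ductal adenocarcinoma (PDAC), with 6 KPF libraries (GFP+ cells) and 3 KPYYF libraries (Tm+ cells). Both strains carried, among other alleles, 1 Trp53 allele that Flp removes (Trp53 frt/+), a Flp driven by the pancreatic Pdx promoter (Pdx-Flp), and, at R26, a Flp-dependent CreER (FSF-CreER) with a color reporter (Dual), and KPYYF mice were in addition homozygous for a floxed Yap allele. Flp marks the tumor cells with GFP. Tamoxifen was fed in the diet to mice of both strains once tumors could be felt, and the CreER it activates replaces GFP by tdTomato (Tm) and, in KPYYF mice, deletes Yap. The KPYYF cells came from nodules that grew back. Strain, Yap status, reporter color and relapse therefore change together and cannot be told apart, and the age of the animal behind each library was not given in the sources used here. More than 1000 Xist reads, a mark of female cells, were found in all 3 KPYYF libraries but in 3 of the 6 KPF libraries. The groups were thus not balanced in this mark. Each library bore its own mouse number, but 4504h and 4504s shared their digits, and whether they came from 1 animal was not given. They were counted as 2 of the 6 KPF libraries, so n counts libraries and p values measure only the spread between them.

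Wnt proteins are lipid-modified secreted ligands. In the canonical branch they bind a frizzled receptor with the co-receptor Lrp5 or Lrp6, which stops the Axin-containing destruction complex from degrading beta-catenin, so that beta-catenin enters the nucleus and acts with Tcf and Lef factors. In the beta-catenin-independent branch, ligands such as Wnt5a act through frizzleds and the receptor tyrosine kinase-like proteins Ror1, Ror2 and Ryk. The pathway restrains itself through target genes such as Axin2, Nkd1, Notum, Rnf43 and Znrf3, and R-spondins bind Lgr receptors to relieve the restraint by Rnf43 and Znrf3.

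The libraries held 8264587 to 9635514 (KPF) and 8116539 to 8725132 (KPYYF) reads on genes. At this depth 3 reads, the limit that a count of 0 allows, correspond to 0.291 to 0.436 CPM (reads per 1000000 reads on genes, scaled by TMM), and intervals and limits given here cover counting error only. In such 3′ end libraries a transcript gives reads only near its end, so CPM is not divided by gene length, and shares given here are shares of reads. Yap1, the deleted gene, lay between 41.7 and 151 CPM in KPF cells and between 0.711 and 7.10 CPM in KPYYF libraries, with a log2 fold change (log2FC, KPYYF over KPF, given with its standard error, SE) of -4.79 ± 0.72. The adjusted p was 0.0159 by the quasi-likelihood test of edgeR, and was 0.0553 on leaving out KPYYF library 4891 and 0.0771 with limma-voom. Its paralog Wwtr1 (Taz) had a log2FC of 0.17 ± 0.49 (SE, adjusted p = 0.913). Markers of other cell types stood apart in single libraries. The summed level of 10 immune markers was 9681 CPM in KPF library 4601 and 2687 CPM in KPF library 4504s, against 437 to 757 CPM in all others, and that of 7 acinar markers was 14178 CPM in KPF library 4504s and 3741 CPM in KPYYF library 4449, against 48.1 to 677 CPM. Of the immune markers, 8 were tested, all with a log2FC below 0 and none with an unadjusted p under 0.05. Summed mesothelial markers (4 genes, all with a log2FC below 0, 3 with an unadjusted p under 0.05 and none past the adjusted test, among them Upk3b, at most 0.947 CPM in KPYYF) lay between 349 and 2739 CPM in KPF cells and between 40.7 and 208 CPM in KPYYF libraries. Summed markers of epithelial tumor cells (10 genes, 9 with a log2FC below 0) lay between 3606 and 11941 CPM in the KPF group and between 665 and 2166 CPM in the KPYYF group, and Cdh1, Krt18 and Muc1 passed the test as lower in KPYYF. The 14 fibroblast and pericyte markers overlapped, with sums of 450 to 5784 and 1279 to 3395 CPM, and none passed the test (7 had a log2FC above 0 and 7 below, 6 an unadjusted p under 0.05). The 5 Schwann cell markers summed to 86.4 to 253 CPM in KPF cells and 10.3 to 18.0 CPM in KPYYF libraries, with S100b past the test as lower and the defining marker Sox10 at 0 in every library. The 7 endothelial markers summed to 10.8 to 67.8 CPM in KPF cells and 12.7 to 14.8 CPM in KPYYF libraries, and the 5 islet markers to 0.510 to 49.8 and 2.62 to 11.1 CPM. A log2FC below 0 was found for 5 of 6 tested endothelial markers and 4 of 5 islet markers. In each of these lists 2 had an unadjusted p under 0.05, both lower, and none passed the adjusted test. The part of these other cells in the results on Wnt genes was not tested. In sorted bulk cells, fewer cells of a type and less RNA per cell cannot be told apart.

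In KPYYF cells the ligands Wnt4 and Wnt5a fell, by 53.1-fold and 8.80-fold, and Ror2, a receptor of the beta-catenin-independent branch, rose by 3.58-fold. The other 40 tested members did not pass the adjusted test, among them the 8 tested frizzleds, beta-catenin and the feedback gene Axin2. At an adjusted p under 0.05 (edgeR's quasi-likelihood test, Benjamini-Hochberg over the 14105 genes with enough reads), 1 of 43 members was higher (2.33%) and 2 were lower (4.65%). Among all genes tested, 0.305% were higher and 0.794% lower by the same rule. By the rule of the study's methods, which asks for p under 0.05 without adjustment and more than a 2-fold change, 6 members were higher (14.0%) and 8 lower (18.6%), against 4.2% and 9.2% of all genes tested. No KPYYF library overlapped a KPF library in 1 member with higher levels (2.33%) and 5 with lower levels (11.6%), against 3.92% and 5.18% of all genes tested. A log2FC above 0 was found for 19 members (44.2%, against 46.7% of all genes tested) and one below 0 for 24. The median over the 43 tested members was -0.29, against -0.067 over all genes tested, and it moved to -0.075 without KPF library 4269 and to -0.51 without KPYYF library 4449. The number of members called was 2 without KPF library 4601 (Wnt4 and Wnt5a). It was 0 without KPF library 4435 or 4504s, and 0 without KPYYF library 4891 or 4938. Without KPF library 4504s, 6 members were higher and 8 lower by the rule of the methods. The adjusted Wald test of DESeq2 called 11 of the 43, and limma-voom none. The shares of all genes given above are those of edgeR. They were not counted for DESeq2 or limma-voom, so the 11 have no such share beside them.

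**Figure D1:**
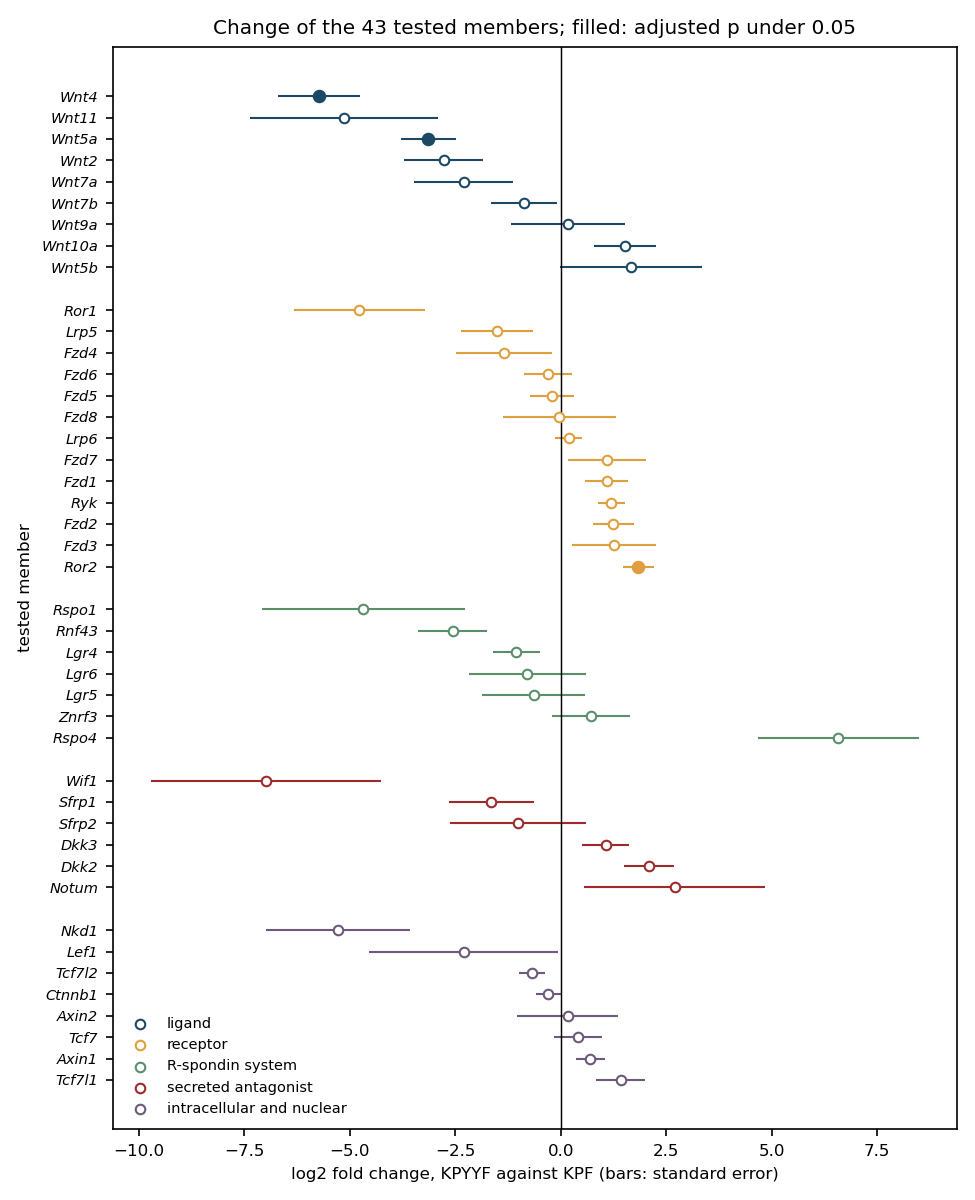
Log2FC of each tested member between KPYYF (3 libraries) and KPF (6 libraries) cells from edgeR's quasi-likelihood test, on the x axis, with bars for the standard error, grouped by role. Filled points have an adjusted p under 0.05: Wnt4 at -5.73 and Wnt5a at -3.14 among the ligands, and Ror2 at 1.84 among the receptors.

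The plot of fold changes by role shows the ligands mostly to the left of 0, with a median of -2.30 over the 9 tested, and the receptors on both sides, with a median of 0.18 over the 13 tested. The R-spondin system (7 tested) had a median of -0.80, the antagonists (6 tested) of 0.02 and the intracellular and nuclear genes (8 tested) of -0.066.

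Wnt4 (ENSMUSG00000036856) is a ligand best known for its roles in the development of the kidney and the female reproductive tract. It lies on chromosome 4 from 137277489 to 137299726 (GRCm38, GENCODE M21, plus strand). Its level was 167, 60.3, 182, 179.6, 93.9 and 18.9 CPM in KPF libraries 4269, 4435, 4504h, 4504s, 4515 and 4601, and 3.08, 3.16 and 0.328 CPM in KPYYF libraries 4449, 4891 and 4938. All 3 KPYYF values lay below all 6 KPF values. The lowest KPF library, 4601, had the highest immune marker level (9681 CPM). KPF library 4504s, with the next highest (2687 CPM), had 179.6 CPM of Wnt4. In reads, 6650 stood against 58. The mean was 117 ± 69.2 CPM (SD, n = 6) in KPF and 2.19 ± 1.61 CPM (SD, n = 3) in KPYYF, and Wnt4 fell by 5.73 on the log2 scale (SE 0.97, adjusted p = 0.0249, edgeR's quasi-likelihood test). The log2FC stayed between -6.31 and -5.22 over all alternatives, but the adjusted p exceeded 0.05 without KPF library 4435 (0.0518), KPF library 4504s (0.0505), KPYYF library 4891 (0.0732) or KPYYF library 4938 (0.0562), and was 0.304 with limma-voom and 0.0523 without a filter on low counts. The mesothelial and epithelial marker sums, like Wnt4, did not overlap between the groups. Nor did the sum of the Schwann cell list, but its defining marker Sox10 had no read and only 2 of its 5 genes were tested. The part of these sums in the result was not tested.

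Wnt5a (ENSMUSG00000021994), the prototype of the ligands that act without beta-catenin, lies on chromosome 14 from 28504750 to 28527448 (plus strand), where the predicted gene Gm2670 overlaps it on the other strand. Whether the counting used the strand of the reads was not given in the sources used here, so reads of the 2 genes may not be separated. The same holds for Wnt7b, Wnt11, Ror1, Ctnnb1 and Tcf7l1, which also overlap other genes. The level of Wnt5a was 48.8, 62.7, 79.6, 44.8, 13.2 and 18.9 CPM in the 6 KPF libraries, in the same order, and 2.84, 6.00 and 6.34 CPM in the 3 KPYYF libraries. Again the groups did not overlap, and KPF libraries 4515 and 4601 came closest to the KPYYF level. With a mean of 44.7 ± 25.4 CPM (SD, n = 6) in KPF and 5.06 ± 1.93 CPM (SD, n = 3) in KPYYF, Wnt5a fell by 3.14 on the log2 scale (SE 0.64, adjusted p = 0.0357, edgeR's quasi-likelihood test). This call held without KPF library 4515 (0.0385) or KPF library 4601 (0.0284). It was lost without KPF library 4269 (0.0615), 4435 (0.0780), 4504h (0.0570) or 4504s (0.0758), and without KPYYF library 4449 (0.0715), 4891 (0.104) or 4938 (0.106), where the log2FC stayed between -3.33 and -2.85. It was also lost with 4504h and 4504s summed (0.0562) and with limma-voom (0.198).

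The ligands Wnt2 and Wnt11 met the rule of the methods without passing the adjustment. Wnt2, a canonical ligand, had 2.52, 16.2, 18.6, 16.0, 5.08 and 7.27 CPM in KPF cells and 0.711, 2.51 and 1.53 CPM in KPYYF libraries. Its groups did not overlap, although the highest KPYYF library, 4891, lay just under KPF library 4269, and the log2FC was -2.78 ± 0.93 (SE, adjusted p = 0.164). Wnt11, another ligand of the beta-catenin-independent branch, had 8.63, 0, 6.42, 0.795, 1.10 and 1.45 CPM in KPF libraries. In KPYYF libraries it had 0, 0 and 0.219 CPM, which is 2 reads in library 4938 and none in the others. Its groups overlapped, since KPF library 4435 also held no read. The ratio of the pooled levels, KPF over KPYYF, was 43.8 with a counting interval of 12.0 to 365 (95%, exact), and the adjusted p was 0.273.

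Wnt7b, a canonical ligand, had the highest mean CPM of the ligands over all 9 libraries (91.4, against 78.6 for Wnt4) but not within the KPF group (108 against 117), and did not pass the test. It had 5.43, 63.9, 144, 136, 166 and 131 CPM in KPF cells and 53.8, 29.7 and 93.2 CPM in KPYYF libraries. The groups overlapped, and the lowest of all 9 libraries was KPF library 4269. The log2FC was -0.87 ± 0.78 (SE, adjusted p = 0.650). Wnt7a ranged from 2.65 to 88.8 CPM in KPF cells and from 1.42 to 16.5 CPM in KPYYF libraries, with a log2FC of -2.30 ± 1.18 (SE, adjusted p = 0.371). Wnt10a, with a value of 1.51 ± 0.74 (SE, adjusted p = 0.343), Wnt5b, with 1.66 ± 1.69 (SE), and Wnt9a, with 0.18 ± 1.35 (SE), were the ligands with a log2FC above 0. The 5 ligands below the limit of 100 reads were Wnt1, Wnt3, Wnt6, Wnt10b and Wnt16, and all 14 reads of Wnt16 were in KPYYF libraries. Wnt2b, Wnt3a, Wnt8a, Wnt8b and Wnt9b had no read.

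**Figure D2:**
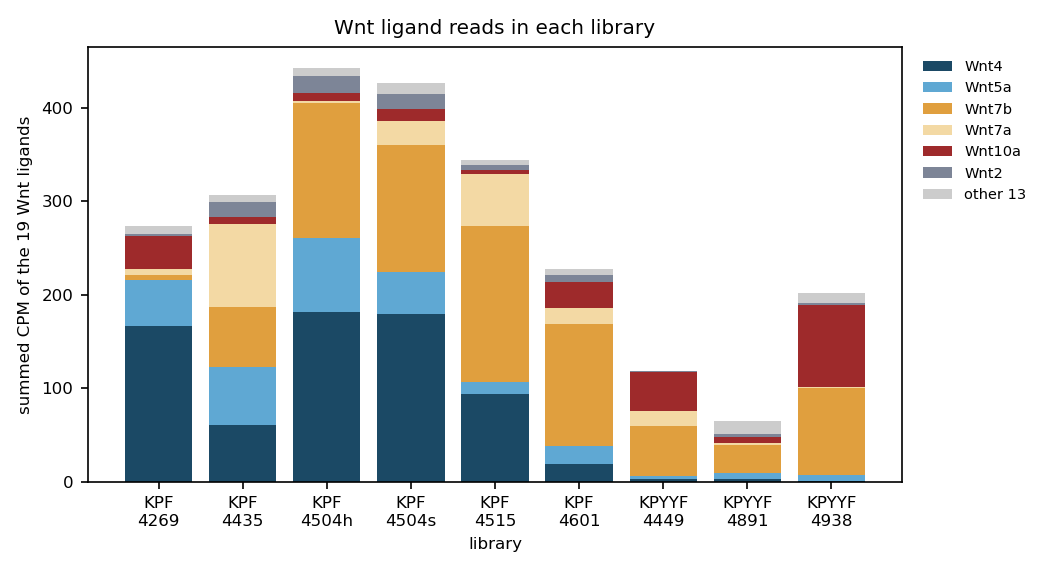
Summed CPM of the 19 Wnt ligands in each library (y axis, from 0), stacked by ligand. Wnt4 and Wnt5a make up much of the bar in most KPF libraries and little in the 3 KPYYF libraries, where Wnt7b is the leading ligand.

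The summed level of the 19 ligands was 274, 307, 443, 427, 344 and 228 CPM in KPF cells and 118, 64.4 and 202 CPM in KPYYF libraries. The groups did not overlap in this sum. Without Wnt4 and Wnt5a they did, with 58.3 to 237 CPM in KPF cells and 55.3 to 195 CPM in KPYYF libraries. Wnt4 took 8.30 to 60.9% of the ligand reads in KPF and 0.163 to 4.91% in KPYYF libraries. As the stacked plot of ligands shows, Wnt4 led in KPF libraries 4269, 4504h and 4504s, and Wnt7a in 4435. Wnt7b led in KPF libraries 4515 and 4601 and in all 3 KPYYF libraries. It took 45.5 to 46.2% of the ligand reads in KPYYF libraries, within its KPF range of 1.99 to 57.6%. Wnt10a took 34.8, 11.3 and 43.6% in KPYYF libraries 4449, 4891 and 4938, against 1.25 to 12.8% in KPF libraries, so that these shares overlapped.

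Among the receptors, Ror2 (ENSMUSG00000021464), a receptor tyrosine kinase-like protein that binds Wnt5a, rose. It lies on chromosome 13 from 53109312 to 53286124 (minus strand). Its level was 8.93, 13.3, 15.2, 13.6, 15.2 and 8.72 CPM in KPF cells and 49.97, 48.9 and 35.4 CPM in KPYYF libraries. The 6 KPF libraries lay close together, and the lowest KPYYF library was more than 2-fold above the highest of them. With means of 12.5 ± 2.95 CPM (SD, n = 6) and 44.7 ± 8.10 CPM (SD, n = 3), the log2FC was 1.84 ± 0.37 (SE, adjusted p = 0.0357, edgeR's quasi-likelihood test). Leaving out KPF library 4504h kept this call (adjusted p = 0.0488). Leaving out KPF library 4269, 4435, 4504s, 4515 or 4601 or KPYYF library 4449, 4891 or 4938 ended it (0.0521 to 0.116), while the log2FC stayed between 1.75 and 1.98. The adjusted p was 0.0562 with 4504h and 4504s summed, 0.0503 with limma-voom and 0.167 with only the 6 libraries of more than 1000 Xist reads, a mark of female cells.

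Ryk, a Wnt receptor with an inactive kinase domain, had 145, 118, 200.3, 214, 175 and 114 CPM in KPF cells and 199.7, 455 and 453 CPM in KPYYF libraries. KPYYF library 4449 lay within the KPF range and the other KPYYF libraries lay above it. Library 4449 had high acinar markers (3741 CPM), but KPF library 4504s had more (14178 CPM) and the highest Ryk level of the KPF group. The part of acinar cells in these levels was not tested. The log2FC was 1.20 ± 0.31 (SE, adjusted p = 0.0914). The adjusted p was 0.0290 without KPYYF library 4449, 0.244 without 4891 and 0.253 without 4938. Ror1, the paralog of Ror2, had 19.0, 12.4, 2.96, 15.0, 6.73 and 0.291 CPM in KPF cells and 0, 0.109 and 0.874 CPM in KPYYF libraries. Its fold change was opposite in sign to that of Ror2, at -4.78 on the log2 scale (SE 1.55, adjusted p = 0.150), and the groups overlapped through KPF library 4601. Fzd2, a frizzled, had 10.8, 21.6, 33.1, 17.7, 10.8 and 14.1 CPM in KPF cells and 44.5, 66.3 and 17.4 CPM in KPYYF libraries, so that KPYYF library 4938 lay within the KPF range (log2FC 1.25 ± 0.49, adjusted p = 0.223).

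Lrp5, a co-receptor of the canonical branch, had 13.3, 8.58, 6.32, 11.7, 8.83 and 8.58 CPM in KPF cells and 3.55, 0.436 and 6.01 CPM in KPYYF libraries. The groups did not overlap, but KPYYF library 4938 and KPF library 4504h lay close together, and the log2FC was -1.51 ± 0.86 (SE, unadjusted p = 0.100, adjusted p = 0.419, edgeR's quasi-likelihood test). Lrp6, the other co-receptor, had 50.9 to 107 CPM in KPF cells and 61.4 to 124 CPM in KPYYF libraries and a log2FC of 0.18 ± 0.33 (SE, adjusted p = 0.847). The other 7 tested frizzleds, Fzd1 and Fzd3 to Fzd8, had log2FCs between -1.35 (Fzd4) and 1.26 (Fzd3) and adjusted p values of 0.316 or more. Fzd9 and Fzd10 were below the limit for testing, and all 10 frizzleds together summed to 55.4 to 167 CPM in the KPF group and 135 to 168 CPM in the KPYYF group. Summed over the 15 receptors and co-receptors, KPYYF libraries held 544 to 741 CPM and KPF libraries 238 to 479 CPM, with Ryk holding the most reads of these genes in each library. Ryk made up 199.7 to 455 CPM of the sum in KPYYF and 114 to 214 CPM in KPF libraries, and did not pass the adjusted test. Without Ryk the sums of the groups overlapped.

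**Figure D3:**
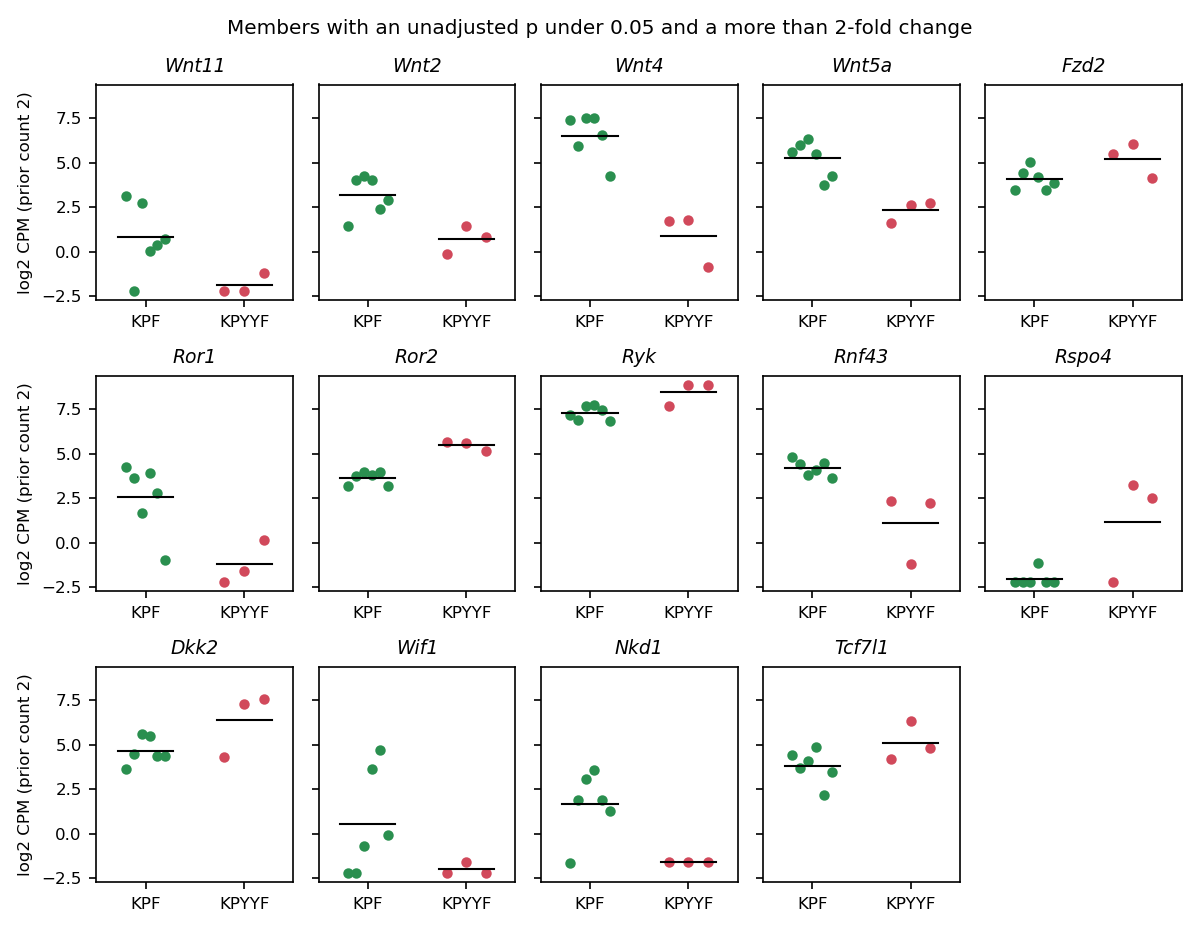
Log2 CPM (prior count 2, y axis) of the 14 members that met the rule of the methods (unadjusted p under 0.05, change over 2-fold), in the 6 KPF (green) and 3 KPYYF (red) libraries. Each point is a library, spread sideways only for legibility, and the line is the group mean. Wnt2, Wnt4, Wnt5a, Ror2 and Rnf43 show no overlap.

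To set the genes in their sequence context, windows of 300 bases around RefSeq start sites (GRCm38.p6, 250 bases before to 50 after) were read for 41 of the 61 members, which gave 51 windows. They were searched on both strands for GGAATG, the core letters bound by the Tead factors that partner Yap, and for CTTTGAA or CTTTGAT, the letters bound by Tcf and Lef factors. Of the 51 windows, 2 held the Tead letters and 3 the Tcf and Lef letters, against 14.7% and 8.65% of all 32851 windows. The windows of Wnt4 (84.3%), Ror2 (74.7%) and Wnt11 (71.3% and 59.3%) held more G and C than the median of all windows (52.7%). Those of Rnf43 held less (46.7% and 44.3%). Wnt4 and Ror2, the called members with a window, held neither motif. Wnt11 held CTTTGAT on the minus strand 51 bases before its start site. The bases before the annotated gene start are shown for the called ligand, the called receptor and the ligand with a match, 5′ to 3′ on the strand of the gene, with the match in capitals. They cover chr4:137277385-137277488 on the plus strand (Wnt4), chr13:53286125-53286374 on the minus strand (Ror2) and chr7:98834862-98835111 on the plus strand (Wnt11).
Wnt4: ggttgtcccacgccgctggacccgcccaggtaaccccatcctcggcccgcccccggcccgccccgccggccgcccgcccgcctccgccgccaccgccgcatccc
Ror2: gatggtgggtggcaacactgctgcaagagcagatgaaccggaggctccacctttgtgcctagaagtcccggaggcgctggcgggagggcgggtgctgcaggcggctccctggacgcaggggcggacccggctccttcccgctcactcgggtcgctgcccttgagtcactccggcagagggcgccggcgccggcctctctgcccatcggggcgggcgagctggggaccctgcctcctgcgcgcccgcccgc
Wnt11: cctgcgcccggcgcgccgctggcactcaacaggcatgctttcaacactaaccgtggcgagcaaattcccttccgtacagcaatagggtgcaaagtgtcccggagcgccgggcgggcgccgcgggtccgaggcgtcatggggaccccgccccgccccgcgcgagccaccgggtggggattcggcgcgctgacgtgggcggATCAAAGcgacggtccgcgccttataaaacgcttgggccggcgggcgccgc
Letters in a window are no measurement of binding. Among the other members with a window whose values are given by library here, Lgr4 alone held a match, with the Tead letters 178 and 158 bases before its start site.

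In the R-spondin system, Rnf43, a ubiquitin ligase that removes frizzleds from the cell surface, had 27.6, 20.7, 13.9, 16.7, 22.4 and 12.1 CPM in KPF cells and 4.86, 0.218 and 4.48 CPM in KPYYF libraries. The groups did not overlap, and the lowest KPF library held more than 2 times the level of any KPYYF library. The log2FC was -2.57 ± 0.81 (SE), and the adjusted p of 0.141 missed the threshold. Rnf43 overlaps 1110028F11Rik on the same strand and Gm25968 on the other, so some of its reads could be ambiguous. Its paralog Znrf3 had a log2FC of 0.72 ± 0.92 (SE, adjusted p = 0.769). Rspo4, a secreted ligand of the Lgr receptors, was at 0 in 5 of 6 KPF libraries, with 0.227 CPM (2 reads) in 4504s, and had 0, 9.16 and 5.46 CPM in KPYYF libraries. The pooled ratio, KPYYF over KPF, was 137 (counting interval 37.1 to 1141), with an adjusted p of 0.116, and all 134 KPYYF reads came from libraries 4891 and 4938. Rspo4 overlaps Rspo4os on the other strand.

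Lgr4, an R-spondin receptor, had the highest mean CPM of this system over all 9 libraries (26.9, against 25.2 for Lgr6), although Lgr6 was higher within the KPYYF group (16.9 against 15.6). Lgr4 had 53.3, 20.5, 18.6, 35.1, 50.9 and 16.6 CPM in KPF cells and 16.1, 24.3 and 6.45 CPM in KPYYF libraries. The groups overlapped, with a log2FC of -1.06 ± 0.56 (SE, adjusted p = 0.376). Lgr5, a stem cell marker in other epithelia, reached 16.8 CPM in KPF cells and 10.4 CPM in KPYYF libraries and was at 0 in KPYYF library 4938 (log2FC -0.65 ± 1.22). Lgr6 had a log2FC of -0.80 ± 1.39 (SE). Rspo1 had 0 to 9.54 CPM in the KPF group and 3 reads in all in KPYYF libraries, a pooled ratio of 30.2 (counting interval 10.2 to 148, adjusted p = 0.368). Rspo3 was below the limit for testing and Rspo2 had no read.

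Of the secreted antagonists, Dkk2, which blocks Lrp5 and Lrp6, had 12.3, 22.0, 48.7, 44.8, 20.1 and 20.5 CPM in KPF cells and 19.5, 152 and 188 CPM in KPYYF libraries. As with Ryk, KPYYF libraries 4891 and 4938 were above all KPF libraries and library 4449 lay within their range. The log2FC was 2.10 ± 0.59 (SE, adjusted p = 0.112). The adjusted p was 0.0220 without KPYYF library 4449, 0.254 without 4891 and 0.308 without 4938. Wif1, which binds Wnt ligands in the extracellular space, had 0, 0, 0.408, 12.0, 25.4 and 0.727 CPM in KPF libraries and a single read in KPYYF libraries, in 4891. KPF libraries 4504s and 4515 thus held nearly all of its reads, the pooled ratio of KPF over KPYYF was 169 (counting interval 30.1 to 6693), and the adjusted p was 0.222. Dkk3, a divergent Dickkopf protein, Sfrp1 and Sfrp2, which bind Wnt ligands, and Notum, which removes their lipid, had log2FCs of 1.06, -1.65, -1.02 and 2.70, and adjusted p values of 0.370 or more. All 49 KPYYF reads of Sfrp2 were in library 4891, so its value rests on that library, and the log2FC of Dkk3 ranged from 0.19 to 1.57 with each library left out. Reads of Notum were seen only in KPF libraries 4504s and 4515 and in KPYYF library 4938. Dkk1, Sfrp4 and Sfrp5 were below the limit for testing, with all 43 reads of Dkk1 and all 19 reads of Sfrp5 in KPF libraries, and Dkk4 had no read.

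**Figure D4:**
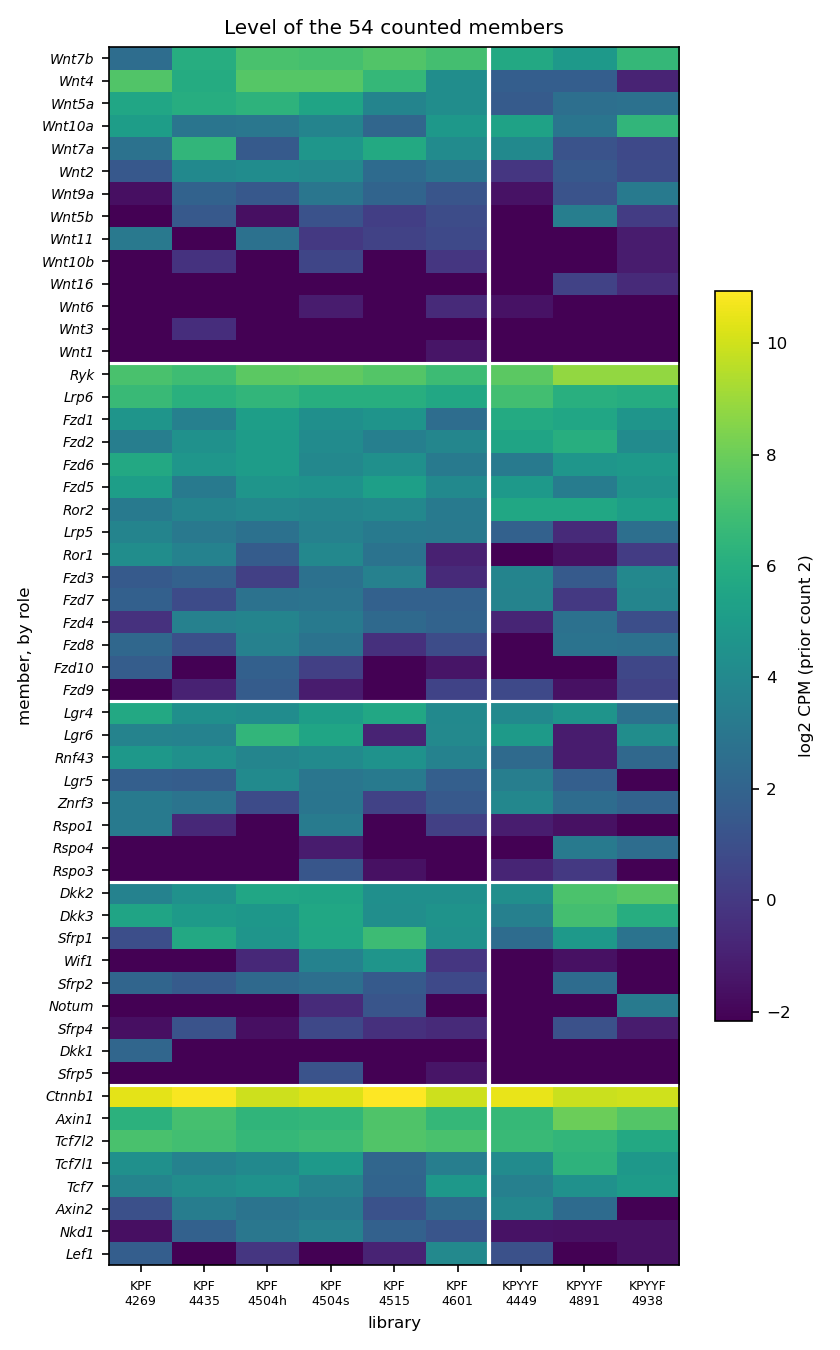
Log2 CPM (prior count 2, color) of the 54 members with at least 1 read, by role (rows, separated by white lines) in each of the 6 KPF and 3 KPYYF libraries (columns). Ctnnb1 is bright in all 9 libraries, whereas Wnt4 is bright in KPF and dark in KPYYF libraries, and Rspo4, Wif1 and Notum are seen in few libraries.

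Inside the cell, Ctnnb1, which encodes beta-catenin, had 1355, 1813, 995, 1217, 1974 and 982 CPM in the KPF group and 1448, 937 and 1019 CPM in the KPYYF group. The groups overlapped, and the log2FC was -0.29 ± 0.29 (SE, adjusted p = 0.691). None of the feedback genes Axin2, Nkd1, Notum, Rnf43 and Znrf3 passed the adjusted test of edgeR, whereas DESeq2 called Nkd1 and Rnf43. Axin2 ranged from 1.84 to 10.3 CPM in KPF cells and from 0 to 14.4 CPM in KPYYF libraries (log2FC 0.16 ± 1.20, adjusted p = 0.972). Nkd1, which binds Dishevelled and restrains the pathway, had 0.0970, 3.47, 8.05, 11.8, 3.53 and 2.18 CPM in KPF libraries, and 1 read in each KPYYF library. KPF library 4269, also with 1 read, made the groups overlap, and the pooled ratio of KPF over KPYYF was 43.3 (counting interval 14.6 to 211, adjusted p = 0.149). Axin1, a scaffold of the destruction complex, had a log2FC of 0.70 ± 0.34 (SE, adjusted p = 0.337).

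Among the nuclear factors, Tcf7l1, mostly known as a repressor, had 21.2, 12.5, 16.6, 29.2, 4.30 and 10.8 CPM in KPF cells and 17.8, 80.1 and 28.3 CPM in KPYYF libraries. Only KPYYF library 4891 lay above the KPF range, and the log2FC was 1.42 ± 0.58 (SE, adjusted p = 0.244) with it and 0.55 (adjusted p = 0.760) without it. Tcf7l2 ranged from 93.6 to 169 CPM in KPF cells and from 52.6 to 105 CPM in KPYYF libraries, with an unadjusted p of 0.0440 but a change below 2-fold (log2FC -0.69 ± 0.31, adjusted p = 0.290). Tcf7 and Lef1 had log2FCs of 0.41 and -2.30, and adjusted p values of 0.796 and 0.680.

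The wider pathway was followed in 3 lists of genes that are no members. Of 33 further pathway genes, 27 were tested, 1 passed the test as lower and none as higher, and the median log2FC was 0.01. The gene that passed was Porcn (ENSMUSG00000031169), the acyltransferase that attaches the lipid to Wnt ligands before they are secreted. Its level was 99.8, 229, 172, 250.4, 460.4 and 163 CPM in KPF cells and 47.6, 15.6 and 29.5 CPM in KPYYF libraries. The groups did not overlap, and Porcn fell by 2.89 on the log2 scale (SE 0.53, adjusted p = 0.0249, edgeR's quasi-likelihood test). Its adjusted p exceeded 0.05 without KPF library 4435 (0.0585) or 4504s (0.0519) or KPYYF library 4891 (0.0763) or 4938 (0.0977). Wls, which carries the finished ligands to the cell surface, had 123 to 212 CPM in the KPF group and 121 to 219 CPM in the KPYYF group and a log2FC of 0.07 ± 0.28 (SE, adjusted p = 0.939).

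By the rule of the study's methods, Dvl2, a Dishevelled protein (1.48 on the log2 scale), and Tpbg, a membrane glycoprotein that dampens canonical signaling (1.82), were higher and Trabd2b, a protease that inactivates Wnt ligands (-3.48), was lower, beside Porcn, with adjusted p values of 0.158, 0.288 and 0.307. Of the tested further pathway genes, 7.41% were thus higher and 7.41% lower, against 4.2% and 9.2% of all genes tested. Dvl2 had an adjusted p of 0.0481 without KPF library 4601 and of 0.356 without KPYYF library 4891. Of 16 planar cell polarity genes, 14 were tested and none passed the adjusted test of edgeR, with 2 at an unadjusted p under 0.05 (1 by DESeq2 and 0 by limma-voom after adjustment). By the rule of the methods Dact3, which binds Dishevelled, was higher (2.63, adjusted p = 0.237) and Prickle2, a core polarity protein, lower (-3.36, adjusted p = 0.259), and the median was -0.90. Each is 7.14% of the tested polarity genes, against 4.2% higher and 9.2% lower among all genes tested. Of 18 reported beta-catenin target genes outside the members, 14 were tested and none passed in edgeR, with 4 at an unadjusted p under 0.05 (4 by DESeq2 and 0 by limma-voom after adjustment). Their log2FC was above 0 in 2 and below 0 in 12 (85.7%, against 53.3% of all genes tested), with a median of -1.01. By the rule of the methods the transcription factor Myc was higher, at 8.58 to 25.4 CPM in KPF cells and 36.0 to 87.5 CPM in KPYYF libraries (log2FC 1.84 ± 0.44, adjusted p = 0.0631). The scaffold protein Nedd9 (-1.24, adjusted p = 0.0596), the Notch ligand Jag1 (-1.77, adjusted p = 0.116) and the matrix metalloprotease Mmp7 (-4.08, adjusted p = 0.105) were lower. Of the tested target genes, 7.14% were thus higher and 21.4% lower, against 4.2% and 9.2% of all genes tested. Shares of all genes were not counted for DESeq2 or limma-voom. Sox9, of this list, is also one of the epithelial markers whose summed level was lower in KPYYF libraries.

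**Figure D5:**
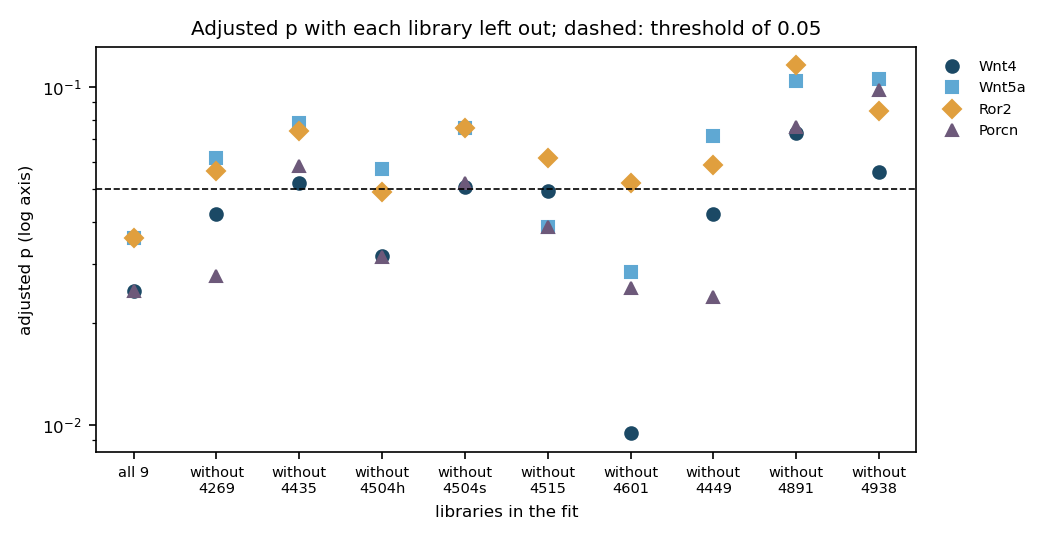
Benjamini-Hochberg adjusted p of edgeR (y axis, log scale) for Wnt4, Wnt5a, Ror2 and Porcn with all 9 libraries and with each library left out in turn (x axis). The dashed line is the threshold of 0.05. All 4 genes are under it with all libraries and all 4 are over it without KPF library 4435 or 4504s or KPYYF library 4891 or 4938.

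The plot of adjusted p values with each library left out shows that Wnt4 and Porcn were each under the threshold in 5 of the 9 reduced fits, Wnt5a in 2 and Ror2 in 1. The direction of all 4 was the same in each of these fits.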

How the data were processed

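The files, as deposited by the authors, hold raw read counts per Ensembl gene of one library each, not normalized. They came from 3′ end libraries (Lexogen QuantSeq Forward kit), and the submitters' processing notes name STAR, HTSeq and mm10 without versions. The annotation and strand setting are not given in the sources used here, and the methods of the study describe BeadChip hybridization beside a filter on read sums and DESeq2. Symbols and positions came from GENCODE M21 (GRCm38), which matched 47224 of 47643 genes, and promoter windows from RefSeq (GRCm38.p6). One allele that both strains share is not reported here. Members and lists were chosen with earlier results of these data known. Sfrp3 is named Frzb in the mouse and so is no member, but stands in the list of further pathway genes (log2FC 0.38).

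Genes with at least 100 reads in all (14105 of 22925 with a count) entered 1 model of 9 libraries in edgeR 4.0.16 (quasi-likelihood test, TMM, robust estimation, no covariate, R 4.3.3). The p values are two-sided and were adjusted by Benjamini-Hochberg over all genes tested (threshold 0.05). Standard errors are log2FC over the square root of F, and the biological coefficient of variation was 0.825. For members with 1 to 3 reads in a group, the ratio of pooled levels has an exact 95% interval. Values by library were given for members that met the rule of the methods (unadjusted p under 0.05, over 2-fold), for members without overlap and for the member with the highest mean CPM over all 9 libraries in each role. Genes of the lists of further pathway, planar cell polarity and beta-catenin target genes were named where they met the first of these rules. Cell type markers were given as sums and counts, with only some named. Other members were named to account for all of them. The fit was repeated with DESeq2 1.42.0 (Wald test), limma-voom 3.58.1 with quality weights, RLE and upper quartile normalization, no filter, filterByExpr, 4504h and 4504s summed, the 6 libraries with more than 1000 Xist reads (3 per group), and each library left out. The edgeR, DESeq2 and limma-voom fits were tested on simulated counts.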

Additional observations from a re-analysis of the deposited data

Results flagged for a closer look

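Of 18 members examined in the 6 KPF libraries, 2 had a library far from the others by Dixon's test, whose critical value is 0.625 here and which chance passes in about 1 in 20 groups. Wnt7b had a log2 CPM of 2.50 in KPF library 4269, against 6.00 to 7.38 in the other 5, with a gap of 0.718 of the whole range. In the same library Wnt4 took 60.9% of the ligand reads and Wnt7b 1.99%. Rspo4 had a log2 CPM of -1.16 in KPF library 4504s, from 2 reads, while the other 5 KPF libraries held none and sat at -2.18, so that the gap was the whole range (ratio 1). With 5 libraries tied at the floor, a read in the remaining library always gives this ratio. The rate of 1 in 20 does not hold there, and the test cannot tell whether the Rspo4 value is an outlier. Neither value decided a call at an adjusted p under 0.05. Without KPF library 4269, however, Wnt7b had a log2FC of -1.12 and an unadjusted p of 0.0210 (edgeR's quasi-likelihood test, adjusted p = 0.205). In that fit Wnt7b thus met the rule of the methods, which it did not meet with all libraries.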

How the results depend on the processing

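With 9 libraries and a biological coefficient of variation of 0.825, no call was the same under all alternatives. Over 17 alternatives, the 18 members given by library had 300 values, all with the direction of the reported value (Rspo4, Wnt11 and Wif1 had too few reads to be tested in some fits). Of these, 263 also kept their side of the threshold, 26 lost significance and 11 gained it. All 26 losses fell on Wnt4, Wnt5a and Ror2, the only members with a call to lose, each fitted in 17 alternatives. The number of members with an adjusted p under 0.05 was 4 higher and 7 lower with DESeq2, 0 and 0 with limma-voom, 2 and 1 without a filter on low counts (54 members tested), 0 and 1 with 4504h and 4504s summed, and 0 higher with only the libraries above 1000 Xist reads (2 lower). Shares over all genes were not counted for these alternatives. By the rule of the methods, limma-voom gave 6 higher and 5 lower members, and no filter gave 10 higher members. With each library left out, the calls ranged from 0 to 2 higher and from 0 to 2 lower, and the median log2FC from -0.51 (without KPYYF library 4449) to -0.075 (without KPF library 4269). For members whose KPYYF or KPF libraries held 1 to 3 reads (Nkd1, Wnt11, Wif1, Rspo1 and Rspo4), depth limits the fold change to the counting interval given. No paired analysis was possible because the libraries of both groups bear different mouse numbers and the labels give no replicate number that they share. The causes of these differences were not tested.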
